A study of Mus musculus with 8 samples.

Results

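Small nucleolar RNA host genes carry snoRNA genes in their introns. The 8 noncoding host genes described here are Gas5, Snhg1, Snhg3, Snhg5, Snhg6, Snhg8, Snhg12 and Snhg15, chosen by name as a list. Of the 23183 genes with a row in the count files, 7 of the 8 were found under these symbols, and Snhg15 was found as the row Gm11974, its RefSeq synonym. All 8 had enough counts to be tested, among 12239 genes tested in all. They were measured by poly(A) RNA-seq in 8 libraries of cultured ILC2s, the group 2 innate lymphoid cells that make type 2 cytokines in the lung. The cells came from lungs of C57BL/6 mice, 6 to 10 weeks old and of both sexes, that had been given IL-33. They were enriched with a pan-ILC kit and CD45 microbeads and grown with IL-2, IL-7 and IL-33 at 10 ng/mL each. The 4 libraries of the Yoda1 group came from cells given 5 µM Yoda1, an agonist of the mechanosensitive cation channel Piezo1, for 3 h. The 4 libraries of the DMSO group came from cells given the solvent at 0.1% for the same time. The comparison asks how opening Piezo1 changes the RNA of ILC2s. Whether replicates were separate mice or separate cultures is not given in the sources used here, so the p-values measure only the spread between these samples, which may be technical.

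A host gene is transcribed and spliced, and the snoRNA is trimmed out of the excised intron. Box C/D snoRNAs guide ribose methylation of ribosomal and other RNAs, and box H/ACA snoRNAs guide the change of uridine to pseudouridine. The exons are joined into a poly(A) RNA with little coding capacity, and for Gas5 and several others this RNA starts with a run of pyrimidines (a 5′ TOP start, shared with ribosomal protein mRNAs), enters ribosomes and is removed by nonsense-mediated decay. Gas5, growth arrest-specific 5, was named for its accumulation in cells that stop growing, when translation and decay slow down. The counts given here are of the host genes in poly(A) RNA, not of the snoRNAs. Whether they include host RNA with introns kept is not known.

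The annotated start sites were searched for such a run at or near the start. Each line gives 10 bases before and 20 bases from a RefSeq start (GRCm38.p6), 5′ to 3′, with the longest unbroken run of C or T at or within 5 bases of the start in capitals. Snhg6 had no entry in the promoter table.
Snhg12, chr4:132308668-132308697, plus strand: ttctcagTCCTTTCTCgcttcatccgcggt
Snhg1, chr19:8723477-8723506, plus strand: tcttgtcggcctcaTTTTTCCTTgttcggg
Snhg8, chr3:123508317-123508346, minus strand: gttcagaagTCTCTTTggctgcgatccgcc
Gas5, downstream start, chr1:161035156-161035185, plus strand: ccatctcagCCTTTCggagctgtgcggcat
Gas5, upstream start, chr1:161034591-161034620, plus strand: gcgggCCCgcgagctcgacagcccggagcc
Snhg3, chr4:132353667-132353696, minus strand: gaccacgcctgaCTTCCgggcgttacttaa
Snhg15, chr11:6528741-6528770, minus strand: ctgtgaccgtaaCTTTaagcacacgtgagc
Snhg5, chr9:88522878-88522907, minus strand: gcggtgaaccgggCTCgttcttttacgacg
The runs of Snhg12 and Snhg1 were 9 bases long, that of Snhg8 was 7 and that of the downstream Gas5 start was 6. The Snhg1 run began 4 bases after the start and did not cover it. A run of at least 6 bases was thus found at or near 4 of the 8 starts. The share was 13.7% of all 32851 promoters in the table and 34.9% of the 86 promoters of 5′ TOP mRNAs. Since most promoters of 5′ TOP mRNAs lacked such a run, the search does not decide which hosts have a 5′ TOP start. The annotated start may not be the base at which these cells began transcription, so the windows describe the annotation only. In the promoter window from 250 bases before to 50 bases after the start, the cAMP response element TGACGTCA, searched on both strands, was found at the downstream Gas5 start and at Snhg15, against 1.79% of all promoters. The E-box CACGTG was found at Snhg15 alone, against 7.15% of all promoters.

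GENCODE M21 (GRCm38) placed 28 snoRNA loci inside the 8 host genes, each within an intron of at least 1 transcript. By their letters, 16 held the box C/D motifs (TGATGA near the start and CTGA near the end), 6 ended in ACA followed by 3 bases as box H/ACA snoRNAs do, and 6 held neither. Gas5 (chr1:161034422-161038539, plus strand) held 9 loci, 7 of them with box C/D motifs, and Snhg1 (chr19:8723475-8726443, plus strand) held 8. Snhg12 (chr4:132308623-132311024, plus strand) held 4 loci, and Snhg3 (chr4:132348014-132353686, minus strand) lay 36989 bp from it and held Snora73a and Snora73b, which were identical at 198 of 205 positions. Snhg5 (chr9:88521050-88522929, minus strand) held Snord50a and Snord50b. Snhg6 (chr1:9941959-9944118, minus strand), Snhg8 (chr3:123507552-123508404, minus strand) and Snhg15 (chr11:6525591-6528760, minus strand) held 1 each, Snord87, Snora24 and Snora9.

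**Figure D1:**
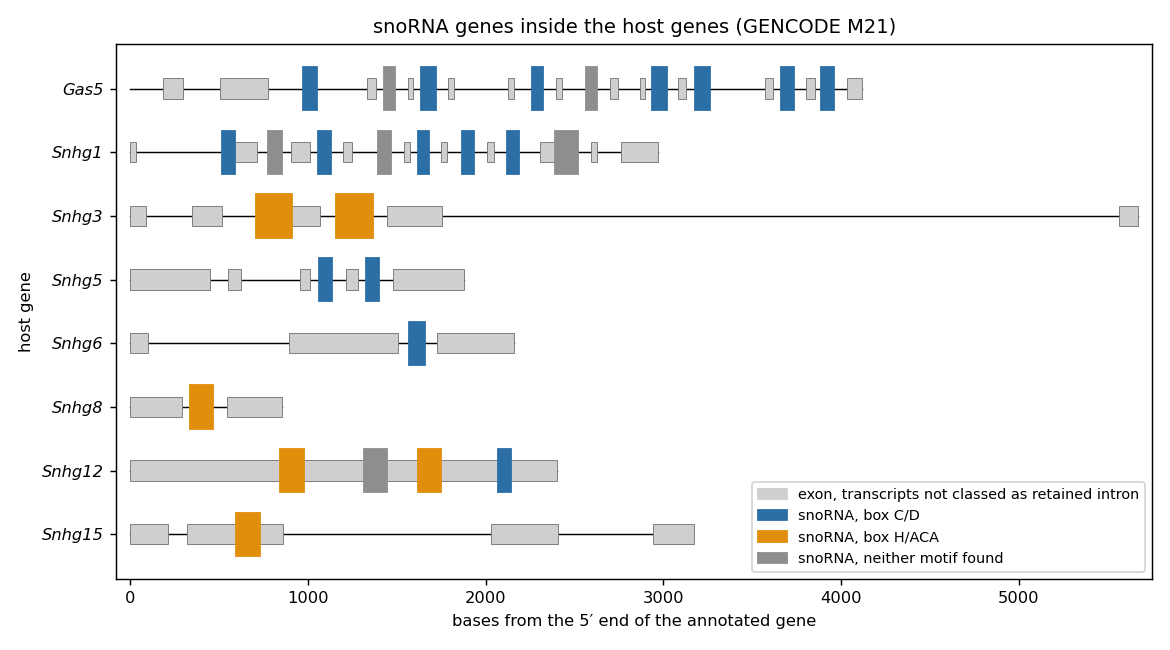
Map of the 8 host genes, drawn to scale in bases from the 5′ end of the annotated gene. Light gray boxes are exons of the transcripts not classed as retained intron and the taller coloured boxes are the 28 snoRNA loci by motif class; Gas5 and Snhg1 carry 9 and 8 loci with box C/D motifs or neither motif, while Snhg12 mixes both classes and its exon box spans its snoRNAs because the exons of some of these transcripts run through them.

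The snoRNAs of Snhg12, the host gene whose count passed the test below, are printed with the short ones of Snhg5 and Snhg6 for the box C/D form. Capitals mark the C box TGATGA and the D box CTGA, or the ACA near the 3′ end.
Snora16a, chr4:132309465-132309600, plus strand: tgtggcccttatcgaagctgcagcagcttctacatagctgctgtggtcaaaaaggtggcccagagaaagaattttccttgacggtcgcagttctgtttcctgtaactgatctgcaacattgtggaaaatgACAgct
Snora44, chr4:132309941-132310069, plus strand: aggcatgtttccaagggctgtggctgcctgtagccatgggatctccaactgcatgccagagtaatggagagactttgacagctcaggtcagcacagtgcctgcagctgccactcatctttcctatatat
Snora61, chr4:132310240-132310369, plus strand: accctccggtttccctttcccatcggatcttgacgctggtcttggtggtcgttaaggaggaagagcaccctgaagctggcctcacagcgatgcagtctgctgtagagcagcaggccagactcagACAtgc
Snord99, chr4:132310691-132310764, plus strand: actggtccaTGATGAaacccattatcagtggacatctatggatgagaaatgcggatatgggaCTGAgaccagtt
Snord50a, chr9:88521529-88521600, minus strand: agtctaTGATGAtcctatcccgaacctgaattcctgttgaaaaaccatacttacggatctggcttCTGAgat
Snord50b, chr9:88521797-88521868, minus strand: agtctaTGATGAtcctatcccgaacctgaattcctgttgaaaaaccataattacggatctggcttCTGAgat
Snord87, chr1:9942463-9942549, minus strand: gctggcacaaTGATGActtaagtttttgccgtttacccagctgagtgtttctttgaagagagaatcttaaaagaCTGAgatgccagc
The Snord50a and Snord50b sequences were identical at 71 of 72 positions. Snora44 is listed as an H/ACA snoRNA by name, and no ACA stood 3 bases before the end of its annotated locus.

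The libraries held between 12438009 and 19534653 counts, so that 1 count was worth 0.0512 to 0.0804 CPM (normalised counts, corrected for library total and for TMM factors of 0.988 to 1.01). Each host gene had between 184 and 1654 counts in each library. Every pair of replicates differed by more than counting noise, with a chi-square per gene of 2.01 to 6.62. All 12 ILC2 markers examined, among them Gata3 and Il1rl1, were detected. Of the 12, 5 were higher with Yoda1, among them the cytokine genes Il13 and Il5, beside 6.04% of all genes tested. Gata3 was at 543 to 602 CPM with DMSO and 546 to 601 CPM with Yoda1. The 12 markers summed to 17366 to 17908 CPM in the DMSO libraries and 19619 to 19993 CPM in the Yoda1 libraries. Within this sum, the mean of Il13 was 5431 CPM with DMSO and 6667 CPM with Yoda1. Of the 5 NK cell markers 2 were higher, Eomes and Prf1, and their sum was 755 to 834 CPM in the DMSO libraries and 803 to 867 CPM in the Yoda1 libraries, with the defining marker Ncr1 at most at 5.88 CPM. None of the 5 measured T cell markers passed the test (sums of 69.0 to 76.8 and 74.2 to 84.2 CPM). The sums were 5.32 to 7.20 CPM for 5 B cell markers, with Pax5 at 0 counts throughout, and 6.51 to 8.85 CPM for 6 macrophage or dendritic cell markers, with Marco at 0 counts throughout. The 5 mast cell or basophil markers summed to 76.9 to 91.0 CPM, nearly all of it Kit, and the 5 epithelial or stromal markers to 213 to 227 CPM, nearly all of it Pecam1, with Sftpc at 0 counts. The part of these other cells in the host genes' values was not tested. In bulk RNA, fewer cells of a type and less RNA per cell cannot be told apart.

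Gas5 had the highest level per length when lengths were taken from spliced transcripts. As CPM per kilobase of the median transcript not classed as retained intron, it stood at 171 ± 8.50 (SD over all 8 libraries) at a length of 502 bp. Snhg3 followed at 46.9 ± 4.91, Snhg8 at 42.5 ± 2.82, Snhg1 at 41.1 ± 1.27 and Snhg6 at 37.5 ± 3.91, each overlapping its neighbour in this order. Snhg15 stood at 26.4 ± 2.19, Snhg5 at 22.6 ± 2.19 and Snhg12 at 17.4 ± 1.87, the lowest, at a length of 915.5 bp. Among neighbours, the ranges of the libraries were apart only between Gas5 and Snhg3 and between Snhg5 and Snhg12. The order depends on which length a read is credited to. Divided by all annotated exon bases, which for Gas5 include the introns kept by 20 of its 25 transcripts, Gas5 came to 22.8 ± 1.14 CPM per kilobase, behind Snhg8 at 24.3 ± 1.62, and Snhg1 with 14 retained-intron transcripts of 18 fell to the seventh place at 7.61 ± 0.234. The mean level of Gas5 in CPM was above that of 78.2% of the genes tested.

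With Yoda1, 1 of the 8 host genes passed the test as higher, Snhg12, and 0 passed as lower. The test was the quasi-likelihood F test of edgeR over all 12239 genes, called at an adjusted p (Benjamini-Hochberg) under 0.05. Over all genes 10.9% were called in either direction and 6.04% as higher, so that the count of 1 in 8 stood near the background. DESeq2 called 0 of the 8. At an unadjusted p under 0.05 there were 2 host genes of 8, Snhg12 and Snhg6, which is near the background of 25.3% over all genes tested. The groups' CPM did not overlap for 1 of the 8, again Snhg12, against 15.5% of all genes tested. The log2 fold changes ran from -0.12 to 0.25, with 5 of the 8 above 0 and a median of 0.078, beside a median of -0.0053 over all genes tested.

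**Figure D2:**
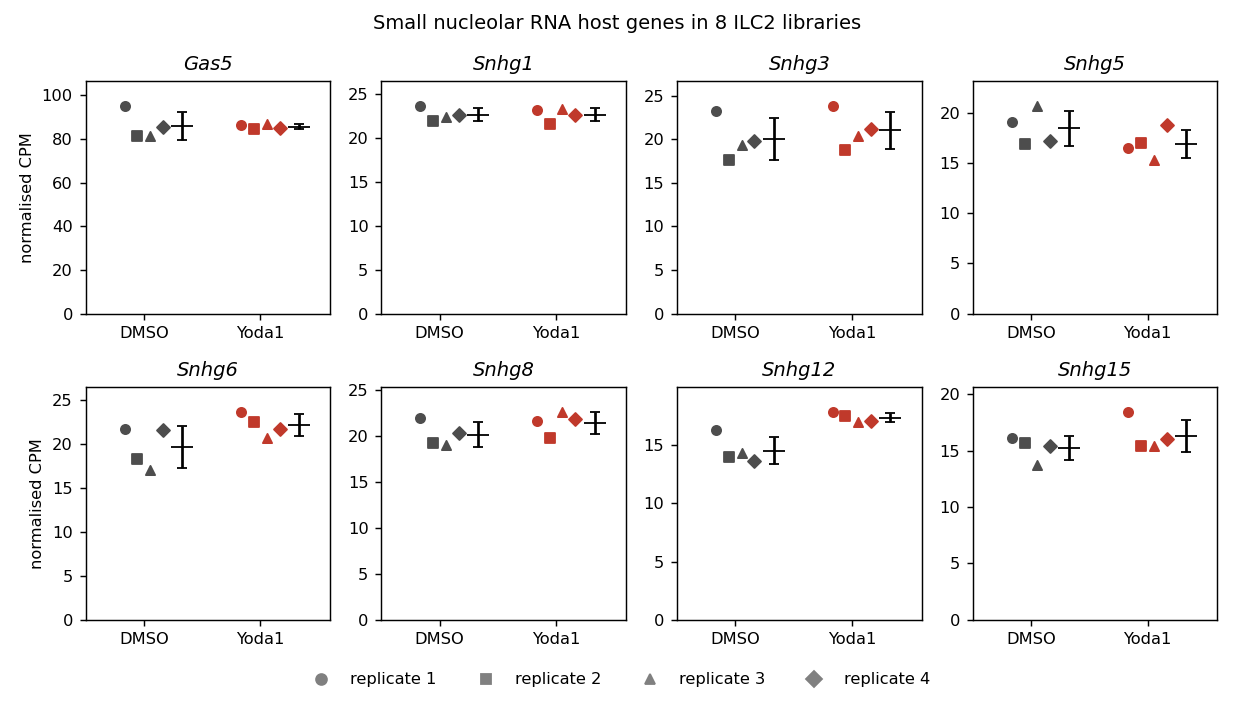
Normalised CPM of each host gene in every library, DMSO in gray and Yoda1 in red, with marker shapes for the replicate number and bars for the mean and SD of 4 libraries; each vertical axis starts at 0 and has its own range. Only the Snhg12 groups are apart (13.6 to 16.3 CPM against 17.02 to 17.8 CPM), and DMSO replicate 1 lies at the top of its group for 7 of the 8 genes.

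Snhg12, host of Snora16a, Snora44, Snora61 and Snord99, was higher in Yoda1-treated ILC2s. In DMSO replicates 1 to 4 it stood at 16.3, 13.96, 14.3 and 13.6 CPM, and in Yoda1 replicates 1 to 4 at 17.8, 17.5, 17.02 and 17.1 CPM. Every Yoda1 library was above every DMSO library, with the smallest gap to DMSO replicate 1. The mean moved by a fold of 1.19, from 14.5 ± 1.19 CPM (SD, n = 4) to 17.4 ± 0.383 CPM (SD, n = 4). On the log2 scale the change was 0.25 (SE 0.078, 95% interval 0.093 to 0.41, adjusted p = 0.0343 by edgeR), and a two-sided exact permutation test of the mean CPM gave p = 0.0286, the smallest that 4 against 4 allows. The spread of the Yoda1 libraries, a coefficient of variation of 2.21%, was below the 6.12% that counting alone gives at this depth. The call was close to the threshold. With DESeq2 the log2 change was 0.26 at an adjusted p of 0.0630, and the adjusted p was 0.0104 to 0.108 when each library was left out in turn, over the threshold without DMSO replicate 2 (0.108), 3 (0.0749) or 4 (0.0908) or Yoda1 replicate 1 (0.0836), 2 (0.0672) or 4 (0.0682).

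**Figure D3:**
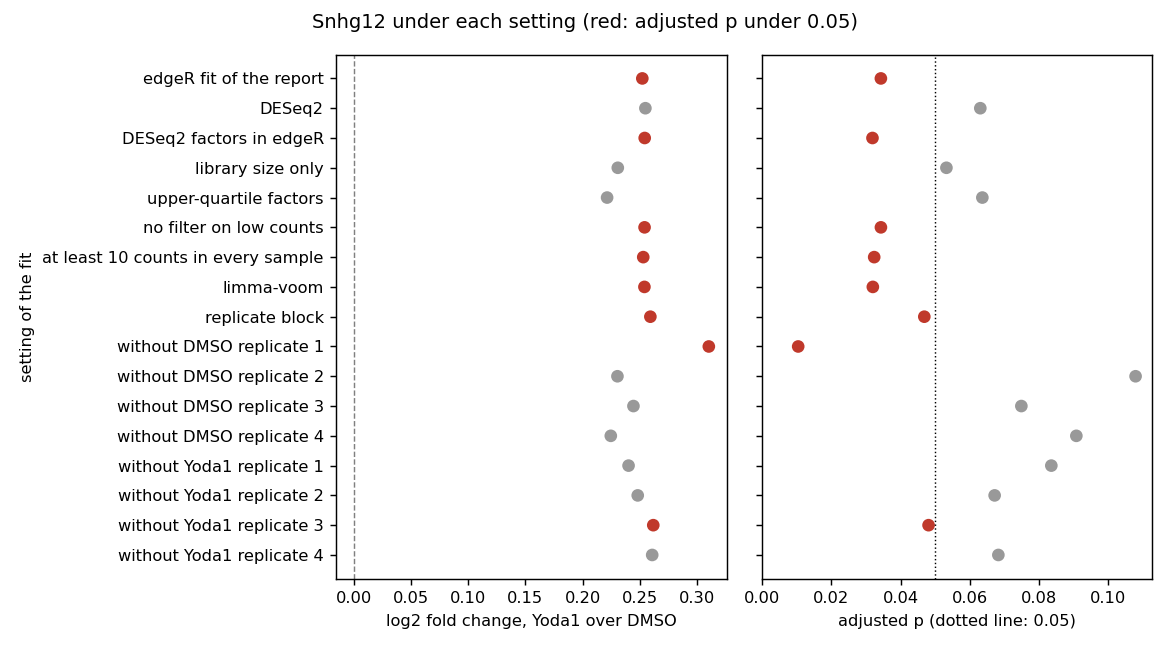
Snhg12 under each setting of the fit, with the log2 fold change of Yoda1 over DMSO on the left and the adjusted p on the right; red points have an adjusted p under 0.05 (dotted line). The fold change stays between 0.22 and 0.31 while the adjusted p lies on both sides of the line, from 0.0104 to 0.108.

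Snhg6, host of Snord87, came next in size and did not pass the test. It was at 21.8, 18.3, 17.1 and 21.7 CPM in DMSO replicates 1 to 4 and at 23.7, 22.5, 20.7 and 21.8 CPM in the Yoda1 libraries. The groups overlapped, since DMSO replicates 1 and 4 lay above Yoda1 replicate 3. The log2 difference was 0.17 (SE 0.078, 95% interval 0.012 to 0.33), with an unadjusted p of 0.0361 and an adjusted p of 0.165 by edgeR. Snhg5, host of the Snord50 pair, was the host gene with the lowest log2 difference. It was at 19.03, 16.9, 20.7 and 17.1 CPM with DMSO and at 16.5, 16.9, 15.3 and 18.7 CPM with Yoda1. Yoda1 replicates 2 and 4 lay inside the DMSO range and the groups overlapped. The log2 difference of Snhg5 was -0.12 (SE 0.082, 95% interval -0.29 to 0.049, adjusted p = 0.390 by edgeR).

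Gas5 and Snhg1, the hosts with the most snoRNAs, were measured most precisely, and their groups lay on top of each other. Gas5 stood at 95.2, 81.6, 81.7 and 85.7 CPM in the DMSO libraries and at 86.5, 84.4, 87.0 and 85.1 CPM in the Yoda1 libraries. All 4 Yoda1 values lay within the DMSO range, whose top value was DMSO replicate 1. The log2 difference of Gas5 was -0.0051 (SE 0.046, adjusted p = 0.960 by edgeR), and its 95% interval reached from a fold of 0.933 to 1.06. Snhg1 stood at 23.6, 21.9, 22.3 and 22.6 CPM with DMSO and at 23.1, 21.6, 23.2 and 22.6 CPM with Yoda1. Its libraries differed by less than counting alone gives in each group. The log2 difference of Snhg1 was -0.00023 (SE 0.065, adjusted p = 0.998 by edgeR), with an interval from a fold of 0.912 to 1.10. A change within these intervals was not detectable at this depth and spread.

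The remaining hosts carry H/ACA snoRNAs, and none of them passed the test. Snhg3, host of the Snora73 pair (also called U17, which acts in the cleavage of the ribosomal RNA precursor), was at 23.3, 17.6, 19.4 and 19.8 CPM with DMSO and at 23.8, 18.8, 20.3 and 21.1 CPM with Yoda1. Replicates 1 of each group were the top values and the groups overlapped (log2 difference 0.066, SE 0.083, adjusted p = 0.682 by edgeR). Part of the Snhg3 exons lies on exons of Rcc1 on the same strand, so the counting could have split reads between them. Snhg8, host of Snora24, was at 22.0, 19.2, 18.99 and 20.3 CPM with DMSO and at 21.6, 19.7, 22.6 and 21.8 CPM with Yoda1. DMSO replicate 1 lay above Yoda1 replicates 1, 2 and 4 (log2 difference 0.090, SE 0.072, adjusted p = 0.469 by edgeR). Snhg15, host of Snora9, was at 16.1, 15.7, 13.7 and 15.4 CPM with DMSO and at 18.4, 15.4, 15.4 and 16.0 CPM with Yoda1. Apart from Yoda1 replicate 1, its Yoda1 values lay within the DMSO range (log2 difference 0.093, SE 0.082, adjusted p = 0.521 by edgeR).

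Each host gene's share of the summed CPM of all 8 does not depend on the library scaling. The share of Snhg12 was 6.86%, 6.81%, 6.88% and 6.29% in the DMSO libraries and 7.71%, 8.06%, 7.68% and 7.62% in the Yoda1 libraries. On this scale too the Snhg12 groups did not overlap, with means of 6.71% ± 0.282 and 7.77% ± 0.198 (SD, n = 4 each). DMSO replicate 1, which came closest to the Yoda1 group in CPM, was at 6.86% in share, just below DMSO replicate 3 at 6.88%. Gas5 took 39.2% to 40.1% of the sum with DMSO and 37.4% to 39.3% with Yoda1, and these ranges overlapped at their edges. The share of Snhg5 was 8.53% ± 0.942 with DMSO and 7.55% ± 0.661 with Yoda1, again overlapping.

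DMSO replicate 1 held more host gene RNA than the other DMSO libraries. It was the highest of its group for 7 of the 8 host genes, whereas 30.1% of all genes tested were highest there. The exception was Snhg5, which was highest in DMSO replicate 3. The median deviation of the host genes in this library from their DMSO group means was 0.14 on the log2 scale, beside 0.20 for the other noncoding hosts, 0.093 for 5′ TOP mRNAs, 0.053 for snoRNP proteins and 0.0053 for all genes tested. Summed over the 8 host genes, the DMSO libraries ran from 205 to 237 CPM and the Yoda1 libraries from 216.8 to 231 CPM, so the sums overlapped (216.7 ± 14.5 and 223 ± 6.09 CPM, SD, n = 4 each). Without DMSO replicate 1 the DMSO mean of the sum was 209.8 ± 5.72 CPM (SD, n = 3). The remaining DMSO sums, 205 to 216.2 CPM, then lay just below the Yoda1 sums, which began at 216.8 CPM. Leaving out the library with the highest DMSO sum favours such a gap. With DMSO replicate 1 left out, the groups did not overlap for 22.2% of all genes tested. The median log2 difference of the 8 host genes in the fit without this library was 0.13 in place of 0.078. In that fit Snhg12 stayed the only host gene past the threshold (log2 change 0.31, adjusted p = 0.0104 by edgeR), 1 of 8 against 12.1% of all genes called there, and Snhg6 came to 0.23 at an adjusted p of 0.0621. What set this library apart was not tested.

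**Figure D4:**
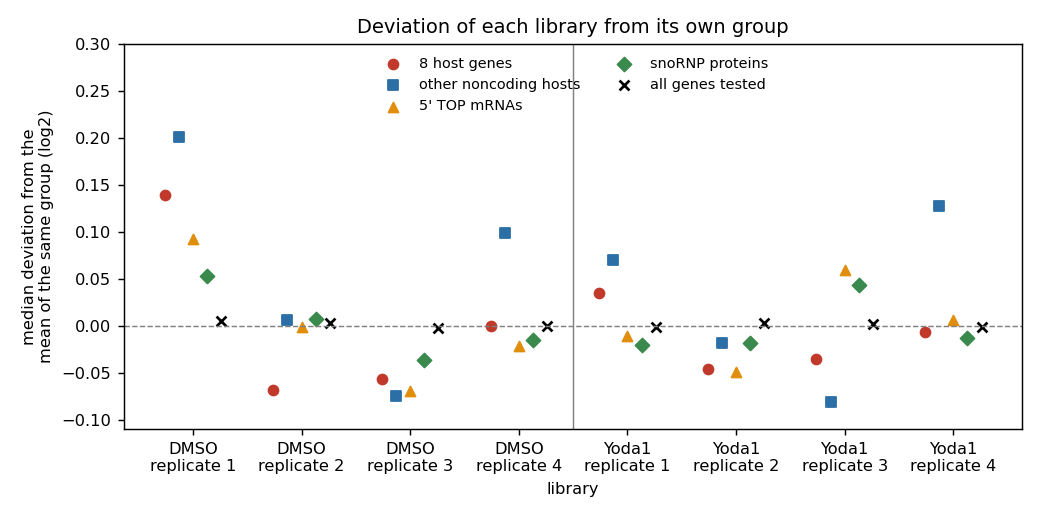
Median deviation of each gene group from the mean of its own treatment group, in log2, for every library. DMSO replicate 1 stands out with 0.14 for the 8 host genes, 0.20 for the other noncoding hosts and 0.093 for 5′ TOP mRNAs. The other noncoding hosts also reach 0.13 in Yoda1 replicate 4 and 0.098 in DMSO replicate 4. All genes tested (crosses) stay close to 0 in each library.

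The snoRNAs themselves were hardly counted. They carry no poly(A) tail, and the libraries were made from poly(A)-selected RNA. Of 110 rows named Snora or Snord, 31 had any count and 0 passed the filter for testing, and together they summed to 19 to 32 counts a library. Inside the host genes, 8 snoRNAs had rows of their own. Snord47, Snord87, Snora24, Snora61 and Snord99 were at 0 counts in all 8 libraries, which allows up to 3 counts in each. Snora16a had 0 to 3 counts, Snora44 had 0 to 1 and Snord22 had 2 to 10. Whether snoRNA levels moved with their hosts was not detectable in these libraries.

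Other noncoding snoRNA hosts gave 0 calls in either direction by edgeR. Of 14 listed, 11 were tested, 0 had an unadjusted p under 0.05, and their median log2 difference was -0.0091. DESeq2 likewise called 0. Zfas1, counted as the row 1500012F01Rik, was at a level near that of Gas5 with 81.4 ± 5.95 CPM with DMSO and 80.9 ± 4.62 CPM with Yoda1 (log2 difference -0.0091, SE 0.050). Of similar level to the smaller host genes, Snhg16 (row 1810032O08Rik) differed by -0.015 (SE 0.083), Snhg4 by 0.048 (SE 0.087) and Snhg17 by 0.12 (SE 0.093) in log2. Snhg20 differed by -0.087 (SE 0.14), Dancr by 0.12 (SE 0.16) and Snhg7 by -0.29 (SE 0.19). With 3 to 22 counts a library, Snhg10 (-0.65), Snhg14 (-0.45), Snhg18 (0.39) and Rian (0.16) had standard errors of 0.33 to 0.40 in log2, so only large changes could have been seen. Snhg9, Snhg11 and Meg3 were too low to test.

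**Figure D5:**
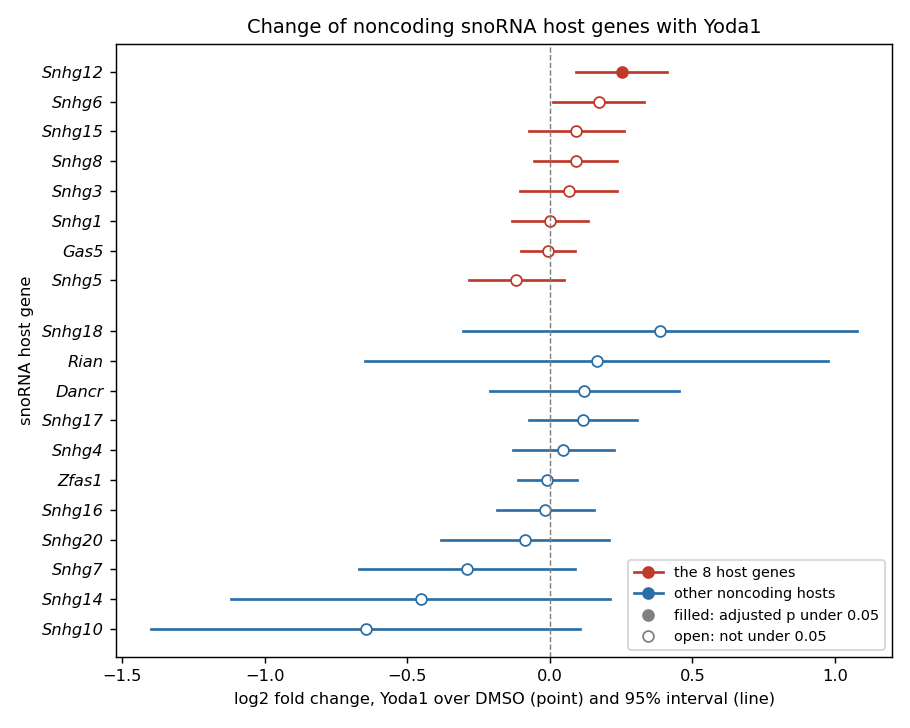
Log2 fold change of Yoda1 over DMSO with its 95% interval for the 8 host genes (red) and for 11 other noncoding hosts (blue), ordered by size; a filled point has an adjusted p under 0.05. Snhg12 at 0.25 is the only filled point, and the intervals of the low genes Snhg10, Snhg14, Snhg18 and Rian are the widest.

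Proteins that build the snoRNA particle or act on the host RNA were examined next. Over all genes 10.9% were called in either direction. Of 19 tested snoRNP genes, among them the methylase Fbl and the pseudouridine synthase Dkc1, 0 passed by edgeR and 0 by DESeq2, with 1 at an unadjusted p under 0.05 and a median log2 difference of 0.036. Of 20 nonsense-mediated decay factors 1 was higher and 1 lower. Smg6, the endonuclease of this pathway, rose by 0.16 in log2 (SE 0.050, adjusted p = 0.0310 by edgeR), although its groups overlapped at 56.7 to 62.5 and 60.3 to 69.7 CPM. Dhx34, a helicase that acts with Upf1, fell by 0.26 (SE 0.064, adjusted p = 0.00665 by edgeR), from 26.5 ± 0.754 to 22.2 ± 1.10 CPM without overlap (SD, n = 4 each). Without DMSO replicate 2 or 4, or without Yoda1 replicate 3 or 4, 1 of the 20 was called.

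The 5′ TOP mRNAs encode ribosomal proteins and translation factors and are named for a pyrimidine run at their start. Of 99 tested, 10 were higher and 0 lower by edgeR, beside 6.04% of all genes higher and 10.9% in either direction. A log2 difference above 0 was found for 97, against 5925 of all 12239 genes. The median was 0.067, beside 0.078 for the host genes, and the difference between the lists was not tested. Rpl30 had the largest change at 0.30 (SE 0.076, adjusted p = 0.00852 by edgeR), followed by Rps28 at 0.19 and Rpl35 at 0.14. The count moved with single libraries. Without DMSO replicate 1 it was 39, and it was 2 or 3 without any of DMSO replicates 2, 3 and 4 and Yoda1 replicates 1, 3 and 4. With library sizes alone it was 3, and with upper-quartile factors 2. Among 13 regulators of TOP mRNAs and mTOR, 1 was lower. Eif4ebp1, which encodes the translation repressor 4E-BP1, fell by 0.24 (SE 0.075, adjusted p = 0.0403 by edgeR), and it was not called without DMSO replicate 1, 3 or 4 or Yoda1 replicate 1.

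Among 12 Myc and growth arrest genes, 2 were lower and 0 higher, beside 10.9% of all genes called in either direction. Gadd45g, a stress and growth arrest gene, fell by 0.33 in log2 (SE 0.054, adjusted p = 8.51e-05 by edgeR), and Ccnd3, which encodes cyclin D3, fell by 0.13 (SE 0.037, adjusted p = 0.0203). Other long noncoding RNAs, such as Malat1 and Neat1, gave 0 calls of 16 tested by edgeR with 3 at an unadjusted p under 0.05. Their median log2 difference was -0.13, with 2 above 0, beside 0.078 for the host genes. These long noncoding RNAs were not searched for snoRNA genes inside them. Of 196 tested protein-coding genes with an annotated snoRNA inside them, 11 were higher and 8 lower, near the 10.9% over all genes. Their median was 0.024. The largest changes among them were in Sh3d19 (-0.51), Gtf2a1 (-0.37), Ints4 (0.34) and Slc49a4 (0.33, row Dirc2), each with an adjusted p of at most 0.0111 by edgeR. Without DMSO replicate 1 the count of such hosts was 35, and without DMSO replicate 2 it was 12.

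The genes next to the hosts were examined within 5 kb. Snhg12 lies 739 bp from Trnau1ap on the opposite strand, which differed by -0.041 in log2 (SE 0.069, adjusted p = 0.769 by edgeR). Zbtb37, which overlaps Gas5 on the opposite strand without sharing exon bases, differed by -0.012 (SE 0.11). Slc3a2, which encodes the heavy chain of amino acid transporters and lies 106 bp from Snhg1, differed by -0.069 (SE 0.039, adjusted p = 0.267). Rcc1 (-0.089), Phactr4 (0.12) and Myo1g (-0.037) did not pass the test either. Mcmdc2, whose exons overlap Snhg6 on the opposite strand, had 4 to 13 counts a library and was not tested.

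Across the 8 libraries, the profile of the host genes, taken as the mean of their standardised log2 CPM, was most like those of Camk2g (Pearson's r = 0.967), Prdx1 (0.963), Vamp3 (0.951) and Grhl1 (0.948), out of 12231 other genes. The correlations are a description over 8 libraries that share their scaling and treatment groups, picked as the highest of all genes.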

How the data were processed

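For each of 8 poly(A) libraries, made with a directional kit, the authors deposited unnormalized read counts by gene symbol. BBMap, Cufflinks, FastQC and FASTX Trimmer are named in their methods, and the submitters' processing notes list TopHat and mm10. Gene annotation, tool versions and the strand handling are not given in the sources used here. Whether reads of genes overlapping on opposite strands were told apart is therefore not known.

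Genes were filtered with filterByExpr of edgeR 4.0.16 in R 4.3.3 (minimum count 10, minimum total 15), scaled by TMM and compared by the robust quasi-likelihood F test without covariates, adjusted over all 12239 genes (Benjamini-Hochberg, threshold 0.05). The standard error is the absolute log2 fold change over the root of F. CPM differences were compared by two-sided exact permutation tests (scipy 1.17.1). Replicates were grouped by their titles, none was left out, and totals of 12438009 to 19534653 counts bound the precision. The floor of 3 counts covers counting error only, while the intervals also include the spread between replicates. Loci came from GENCODE M21 (98.4% of the files' symbols matched) and starts from RefSeq (GRCm38.p6).

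The members and gene lists were chosen with earlier results of these data known. Named were all 8 members, all tested other hosts and neighbours, and of each other list, with the protein-coding hosts, up to 4 called genes with the largest absolute log2 change, besides the 4 genes most like the members' profile; a neighbour and a listed gene that meet this rule are not reported here. Malat1, Neat1, Fbl and Dkc1 appear as list examples, as do the markers. The 16 alternatives were limma-voom (limma 3.58.1), DESeq2 1.42.0, its size factors in edgeR, upper-quartile factors, library size only, a minimum of 10 counts in all samples, no filter, a replicate block, and the 8 fits leaving out 1 library. On counts simulated from these libraries with 200 changed genes, edgeR kept 12159 genes, and 7.91% of its calls were false. It recovered 98% of changes of 0.5 and 100% of those of 1 on the log2 scale. The simulation used a single dispersion for all genes and changed only genes with higher counts. It held no change as small as those of the host genes, which reached 0.25, so it does not give the power for them.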

Additional observations from a re-analysis of the deposited data

Results flagged for a closer look

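Of 40 sets of 4 libraries examined for a sample apart from the rest, the 8 host genes included, 1 was marked, and chance marks about 1 in 20. Snhg4, another noncoding snoRNA host, stood at 11.3 CPM in DMSO replicate 3, below the other DMSO libraries, of which the nearest was at 13.8 CPM. The gap took most of the range of the group. None of the 8 host genes had such a library in either group, although DMSO replicate 1 was the top of its group for 7 of them.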

How the results depend on the processing

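Snhg12 stayed higher under all 16 alternatives, with a log2 change of 0.22 to 0.31, but passed the threshold in only part of them. It missed with DESeq2 (0.26, adjusted p = 0.0630), library size only (0.23, 0.0532) and upper-quartile factors (0.22, 0.0636), so that 0 host genes were called higher there. Leaving out each library gave 0.22 to 0.31 (adjusted p of 0.0104 to 0.108) and 0 to 1 host genes called higher, with the call kept only without DMSO replicate 1 or Yoda1 replicate 3 (0.0481). The other 7 host genes passed in 0 of 112 alternative fits, and 10 of these turned a sign. These were near 0: Gas5 ran from -0.031 to 0.047 over the libraries left out, and Snhg1 was 0.0020 with DESeq2, 0.0018 with its factors in edgeR and with no filter, 0.00063 with at least 10 counts in every sample and -0.018 to 0.023 over the libraries left out.

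Of the lists, snoRNP proteins gave 1 call with upper-quartile factors. Decay factors gave 1 with DESeq2, library size only and upper-quartile factors, and 1 to 3 over the libraries left out. The 5′ TOP mRNAs gave 3 with library size only, 2 with upper-quartile factors, 18 with no filter and 2 to 39 over the libraries left out. Over these same fits, TOP and mTOR regulators gave 0 to 1 and protein-coding hosts 12 to 35. Other long noncoding RNAs gave 3 with upper-quartile factors and 0 to 1 over the libraries left out. The cause of these shifts was not tested. Of the genes called in all, 739 of 1331 were higher, against 553 of 1362 with library size only and 505 of 1463 with upper-quartile factors.

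Same-numbered libraries correlated at 0.048, 0.071, -0.028 and 0.00023 in their deviations from the group means. Differently numbered libraries of the 2 groups correlated at -0.12 to 0.077. These values do not settle whether same-numbered samples shared a mouse or a culture. With the replicate block Snhg12 came to 0.26 (adjusted p = 0.0468 by edgeR), Snhg1 to 0.00087, the 5′ TOP mRNAs to 2 calls and all genes to 966 calls.

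At 184 to 1654 counts a library, the standard errors of the 8 host genes were 0.046 to 0.083 on the log2 scale, and differences of up to 0.17, that of Snhg6, did not pass the test. Strand and exon assignment of the counting are unknown, and a single dose and time were sampled.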
